A study of Homo sapiens with 9 samples.

Results

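The 10 genes described here encode the main heat shock chaperones of the cytosol and the mitochondrial matrix together with their co-chaperones. They were HSP90AA1, HSP90AB1, STIP1 and FKBP4 of the HSP90 system, HSPA8, DNAJB1, HSPH1 and HSPA4L of the HSP70 system, and HSPD1 and HSPE1 of the mitochondrial chaperonin. They were chosen by symbol as 10 rows of a count table of 30017 genes. All 10 passed the filter on low counts, which left 12712 genes tested. RNA-seq had been performed on MOLM13, a monocytic acute myeloid leukemia cell line, and on no other cells in this series. All 3 groups carried a pLKO-GFP lentivirus made in 293T cells, which expressed a control shRNA (sh-Control) or 1 of 2 hairpins against the RNA helicase gene DDX41 (shDDX41 #1 and shDDX41 #2), and GFP-positive cells were sorted on day 4 after transduction. Each group had 3 libraries, lettered A, B and D. Each group stands for 1 hairpin, so an effect of the hairpin sequence on other transcripts cannot be told apart from loss of DDX41. Nothing in the labels says whether the libraries came from separate cultures, so the p-values measure the spread between these libraries.

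Chaperones bind unfolded stretches of other proteins and let them go in cycles of ATP hydrolysis. HSP70 works with J-domain proteins, which hand it clients and stimulate its ATPase, and with HSP110 proteins, which exchange its nucleotide. HSP90 receives clients such as steroid receptors from HSP70 through the adaptor STIP1. The HSP60 ring with its HSP10 lid folds proteins inside mitochondria. Most of these genes are classical targets of the transcription factor HSF1, which binds inverted repeats of GAA called heat shock elements.

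The heat shock element was therefore looked for in the RefSeq promoter windows (GRCh38.p14, 250 bases before to 50 after a start site). The 2-unit motif was GAANNTTC or TTCNNGAA, and the longer motif had at least 3 alternating units spaced by 2 bases. Both strands were read, and the longer motif always contains the 2-unit one. FKBP4 had no window in the table used here. A gene was counted if any of its windows matched, so genes with more windows are counted more readily. The 9 members with a window had 18 windows, and all genes had 35116. Of all windows, 13.5% held the 2-unit motif and 0.49% the longer one. Counted by gene, 7 of the 9 members held the 2-unit motif and 4 held the longer one, against 16.2% and 0.608% of 27305 genes. The 4 were HSP90AA1, HSP90AB1, HSPA8 and HSPD1. HSPA4L, STIP1 and DNAJB1 held the 2-unit motif alone, and no match was found in the windows of HSPH1 and HSPE1. The longer matches are shown because they are the regulatory sequence that these genes are known for. Each run has 30 bases, 5′ to 3′ on the strand of the gene, with the heat shock element in capitals.
HSPD1: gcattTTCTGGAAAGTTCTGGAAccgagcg
HSP90AB1, far match: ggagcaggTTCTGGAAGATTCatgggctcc
HSP90AB1, near match: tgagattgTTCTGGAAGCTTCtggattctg
HSPA8, far match: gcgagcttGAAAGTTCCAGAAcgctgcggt
HSPA8, near match: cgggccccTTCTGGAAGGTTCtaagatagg
HSP90AA1: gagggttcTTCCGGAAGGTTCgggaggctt

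The HSPD1 run lay at chr2:197500061-197500090 on the minus strand, where GENCODE v29 places exons of both HSPD1 and its head-to-head neighbour HSPE1. Its element had 4 units between 228 and 245 bases before an HSPD1 start site. The window of HSPE1 began at chr2:197500129 and so did not reach this run, which lay downstream of another HSPD1 start site at chr2:197500274. The other elements had 3 units. Those of HSP90AB1 lay in an intron of its longer transcripts, 153 to 165 and 100 to 112 bases before a start site. Their runs were at chr6:44247770-44247799 and chr6:44247823-44247852 on the plus strand. The HSPA8 elements lay 218 to 230 and 43 to 55 bases before the start site, in minus-strand runs at chr11:123062345-123062374 and chr11:123062170-123062199. The HSP90AA1 element lay 76 to 88 bases before a start site, in the run at chr14:102087111-102087140 on the minus strand. For HSPA8 and HSP90AA1 the matched runs also fall in annotated exons of the same gene. A match is a description of letters in a window, and binding was not measured.

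Facts that bear on every gene come first. Library totals ranged from 16385238 to 20510032 counts. Levels are given as CPM, the counts of a gene scaled to a common library total. DDX41 was at 113 to 117 CPM in sh-Control, at 9.95 to 12.9 CPM with shDDX41 #1 and at 38.9 to 42.5 CPM with shDDX41 #2, a loss of 89.8% and 64.8%. All 8 markers of this cell line were detected in every library, and their summed level was 2047 to 2115 CPM in the controls, 2080 to 2098 CPM with shDDX41 #1 and 2995 to 3019 CPM with shDDX41 #2. With shDDX41 #2, LYZ, the lysozyme gene of monocytes, made up most of that rise (1.95-fold higher), MPO and PTPRC were also called higher, and the other 5 were not called. With shDDX41 #1, CD33, FLT3 and HOXA9 were called higher and MEIS1 lower (log2 0.25, 0.20, 0.24 and −0.26). The call of PTPRC was lost in each fit without 1 library of sh-Control or shDDX41 #2 (adjusted p 0.0529 to 0.163), that of FLT3 without sh-Control B (0.0748) or shDDX41 #1 B (0.0878), and that of HOXA9 when replicate A of shDDX41 #1 (0.0784) or either B or D of the controls (0.0732 and 0.0514) was left out. The summed T cell markers were at most 2.18 CPM, the B cell markers at most 0.444 CPM and the fibroblast marker COL1A1 at most 0.688 CPM. The epithelial markers summed to 13.2 to 17.7 CPM, nearly all of it KRT18. Replicate D of shDDX41 #1 stood apart from its group, with a chi-square per degree of freedom of 17.6 and 19.2 against A and B. Those 2 replicates differed from each other by 2.91, and the shDDX41 #2 libraries by 2.45 to 3.25. The sh-Control libraries differed from each other by 8 to 10.1. In these bulk samples, fewer cells of a kind and less RNA per cell cannot be told apart. The part of the marker shift and of shDDX41 #1 D in the chaperone values was not tested beyond the fits without that library given below.

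The 10 members were chosen with earlier results of these data known, so the counts below do not test them as a set. Together they made up a smaller share of all counts with both hairpins. Their counts summed to 1.03%, 1.04% and 1.05% of all counts in the sh-Control libraries, to 0.889%, 0.895% and 0.907% with shDDX41 #1 and to 0.860%, 0.861% and 0.832% with shDDX41 #2. The groups did not overlap. Every member had a negative fold change with each hairpin, but the calls differed in place. A gene was called at an adjusted p under 0.05 (edgeR quasi-likelihood test, Benjamini-Hochberg adjustment over all genes tested). With shDDX41 #1, 7 of the 10 members were called lower and 0 higher, where 24.1% of all genes tested were called lower and 23.7% higher. The median log2 fold change of the members was −0.30, against 0.01 over all genes. With shDDX41 #2, again 7 of 10 were called lower and 0 higher, where 13.4% of all genes were called lower and 11.6% higher, and the medians were −0.24 and −0.01. Both comparisons share the sh-Control libraries.

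Counted by separation alone, 6 members were lower in all 3 shDDX41 #1 libraries than in any sh-Control library, where 26.6% of all genes tested were. The same held for 10 of 10 members with shDDX41 #2, where 22.7% of all genes were. Between the hairpins, 3 members were called lower and 3 higher with shDDX41 #1 than with shDDX41 #2, where 24.2% and 24.6% of all genes were. Here 3 members were lower and 5 higher without overlap, against 28.5% and 29.2% of all genes, and the median of the members was 0.06. The plot of member levels shows the libraries one by one.

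**Figure D1:**
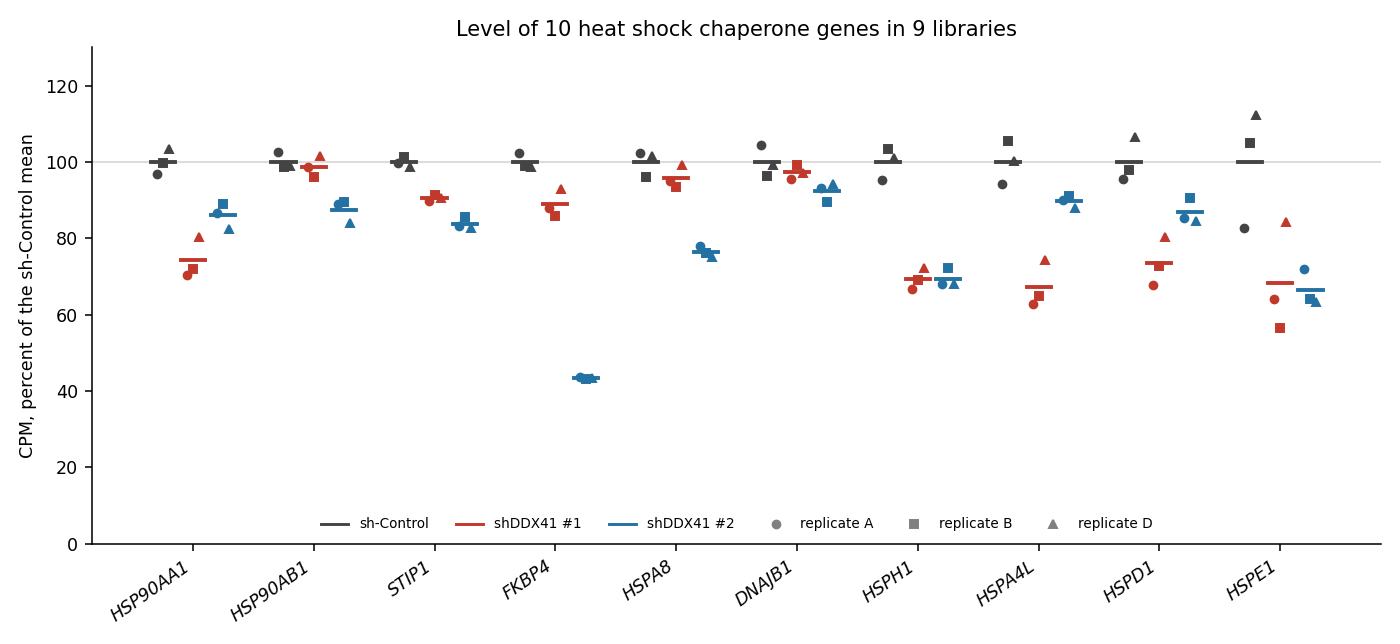
CPM of each member in each of the 9 libraries, as percent of that gene's sh-Control mean (y axis), with genes on the x axis, colour for the group, symbol for the replicate and a short line for the group mean. FKBP4 with shDDX41 #2 lay far below every other value, HSPH1 lay at the same level with both hairpins, and in most members that fell with shDDX41 #1 replicate D of that group was the highest of its 3 libraries.

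HSP90AA1, which encodes the stress-inducible cytosolic HSP90, fell with both hairpins and more with shDDX41 #1. Its level was 2434, 2511 and 2602 CPM in the control libraries, in the order A, B and D that is used throughout, 1768, 1809 and 2022 CPM with shDDX41 #1 and 2182, 2236 and 2072 CPM with shDDX41 #2. All knockdown libraries were below all control libraries, and the hairpin groups did not overlap either. The fold change was 1.35-fold lower with shDDX41 #1 (log2 −0.43, SE 0.0695, adjusted p 0.000137) and 1.16-fold lower with shDDX41 #2 (log2 −0.22, SE 0.0694, adjusted p 0.0321). The second call was lost in 5 of 9 fits that left out 1 library, without sh-Control B or D (adjusted p 0.0666 and 0.107) and without A, B or D of shDDX41 #2 (0.0876, 0.0620 and 0.132), and under upper quartile scaling (0.0773).

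HSP90AB1, the constitutive HSP90 gene, behaved differently from its paralog with shDDX41 #1. It was at 3351, 3228 and 3233 CPM in sh-Control, at 3228, 3140 and 3318 CPM with shDDX41 #1 and at 2913, 2928 and 2744 CPM with shDDX41 #2. The shDDX41 #1 libraries overlapped the controls, and the shDDX41 #2 libraries were below both. The log2 fold change with shDDX41 #1 was −0.02 (95% confidence interval −0.15 to 0.12, adjusted p 0.828). With shDDX41 #2 it was 1.14-fold lower (log2 −0.19, SE 0.0628, adjusted p 0.0357), a call that held in 2 of 9 fits that left out 1 library. It was lost without any 1 of the 3 sh-Control libraries (adjusted p 0.0784, 0.0635 and 0.0749), of the 3 shDDX41 #2 libraries (0.0868, 0.0751 and 0.147) or without shDDX41 #1 A (0.0581). The call was also lost under upper quartile scaling (0.0955) and with no filter on low counts (0.0538).

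The balance of the HSP90 paralogs was read within each library, where scaling has no part. HSP90AA1 held 42.1%, 43.8% and 44.6% of the counts of the pair in sh-Control, 35.4%, 36.6% and 37.9% with shDDX41 #1 and 42.8%, 43.3% and 43.0% with shDDX41 #2. The shDDX41 #1 libraries lay below all others, and the shDDX41 #2 libraries lay within the range of the controls. These genes are similar in coding sequence, and how reads matching both were counted is not stated in the sources used here.

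STIP1, the adaptor between HSP70 and HSP90, was lower by a small amount with both hairpins. It was at 332, 337 and 328 CPM in sh-Control, 298, 303 and 301 CPM with shDDX41 #1 and 277, 284 and 275 CPM with shDDX41 #2. The 3 groups did not overlap. The decrease was 1.19-fold with shDDX41 #2 (log2 −0.25, SE 0.0551, adjusted p 0.00379) and 1.10-fold with shDDX41 #1 (log2 −0.14, SE 0.0551, adjusted p 0.0425). The call with shDDX41 #1 held in 1 of 9 fits that left out 1 library, that without shDDX41 #1 D, and the adjusted p ran to 0.119 in the other 8 and to 0.329 under upper quartile scaling. With shDDX41 #2 the call was kept in all 19 alternatives.

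FKBP4, which encodes the HSP90-bound immunophilin FKBP52, showed the widest difference between the hairpins. It was at 240.2, 233 and 232 CPM in sh-Control, 207, 202 and 218 CPM with shDDX41 #1 and 103, 102 and 102 CPM with shDDX41 #2. The shDDX41 #2 libraries lay close together and far below every other library. The decrease was 2.30-fold with shDDX41 #2 (log2 −1.20, SE 0.0593, adjusted p 5.47e-09) and 1.12-fold with shDDX41 #1 (log2 −0.17, SE 0.0579, adjusted p 0.0253). The small change with shDDX41 #1 lost its call without sh-Control A or B (adjusted p 0.0597 and 0.0504) or without shDDX41 #1 A or B (0.0790 and 0.0998). The call was also lost under upper quartile scaling (0.209), with no filter on low counts (0.0628) and in the fit on 6 libraries (0.0724).

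Counted against STIP1, FKBP4 gave 72.4, 69.1 and 70.7 counts per 100 STIP1 counts in sh-Control, 69.4, 66.6 and 72.5 with shDDX41 #1, and 37.1, 35.7 and 37.2 with shDDX41 #2. The ratio with shDDX41 #1 overlapped the controls. FKBP4 was thus at its lowest in the group that kept more DDX41.

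HSPA8, the constitutive cytosolic HSP70, was called lower with shDDX41 #2 and not with shDDX41 #1. It was at 2106, 1977 and 2086 CPM in sh-Control, 1952, 1921 and 2040 CPM with shDDX41 #1 and 1603, 1563 and 1547 CPM with shDDX41 #2. The shDDX41 #2 libraries were below all others, while shDDX41 #1 overlapped the controls. The decrease with shDDX41 #2 was 1.31-fold (log2 −0.39, SE 0.0615, adjusted p 0.000369), and with shDDX41 #1 the log2 fold change was −0.06 (95% confidence interval −0.19 to 0.07, adjusted p 0.433). A direct test between the hairpins also called it (0.33, adjusted p 0.000472). As a share of the HSPA8 and HSP90AB1 counts together, HSPA8 was at 38.6%, 38.0% and 39.2% in sh-Control, 37.7%, 38.0% and 38.1% with shDDX41 #1, and 35.5%, 34.8% and 36.0% with shDDX41 #2.

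DNAJB1, the J-domain protein HSP40, was the one member called in no comparison. It was at 119, 109.9 and 113 CPM in sh-Control, 109.1, 113 and 111 CPM with shDDX41 #1 and 106, 102 and 108 CPM with shDDX41 #2. The shDDX41 #2 libraries were all below the controls by a small margin. The log2 fold changes were −0.04 (95% confidence interval −0.17 to 0.09, adjusted p 0.618) and −0.12 (−0.24 to 0.01, adjusted p 0.184).

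HSPH1, the HSP110 nucleotide exchange factor, fell by the same amount with both hairpins. It was at 415, 450.2 and 439.9 CPM in sh-Control, 291, 299.9 and 314 CPM with shDDX41 #1 and 296, 314 and 296 CPM with shDDX41 #2. No knockdown library came near a control, and the hairpin groups overlapped. It was 1.44-fold lower in each (log2 −0.53 and −0.53, SE 0.0617 and 0.0616), and the interval of the log2 difference between the hairpins ran from −0.13 to 0.13. Both calls were kept in all 19 alternatives.

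HSPA4L, a second HSP110 protein, separated the hairpins in the opposite sense to FKBP4. It was at 49.2, 55.2 and 52.5 CPM in sh-Control, 32.8, 34.0 and 38.9 CPM with shDDX41 #1 and 47.1, 47.7 and 46.0 CPM with shDDX41 #2. It was 1.49-fold lower with shDDX41 #1 (log2 −0.57, SE 0.0780, adjusted p 3e-05). With shDDX41 #2 the log2 fold change was −0.16 (95% confidence interval −0.32 to 0.01, adjusted p 0.147). The hairpins differed by −0.41 (adjusted p 0.000495), and that call was kept in all 19 alternatives.

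HSPD1, the HSP60 subunit of the mitochondrial ring, fell with shDDX41 #1. It was at 1195, 1225 and 1331 CPM in sh-Control, 848, 910.5 and 1004 CPM with shDDX41 #1 and 1067, 1133 and 1057 CPM with shDDX41 #2. The 3 groups did not overlap, and shDDX41 #1 was the lowest. The decrease with shDDX41 #1 was 1.36-fold (log2 −0.44, SE 0.0735, adjusted p 0.00018). With shDDX41 #2 the log2 fold change of −0.20 (SE 0.0733) missed the threshold at an adjusted p of 0.0542. It passed under 7 of 19 alternatives, among them the DESeq2 Wald test (0.0357), the fit without shDDX41 #1 D (0.0110) and the fit without sh-Control A (0.0499).

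HSPE1, the HSP10 lid, was lower with both hairpins but with the widest spread of the members. It was at 62.6, 79.5 and 85.0 CPM in sh-Control, 48.6, 42.8 and 63.7 CPM with shDDX41 #1 and 54.4, 48.5 and 47.9 CPM with shDDX41 #2. Replicate D of shDDX41 #1 overlapped the controls. The decreases were 1.46-fold (log2 −0.55, SE 0.129, adjusted p 0.00267) and 1.505-fold (log2 −0.59, SE 0.129, adjusted p 0.00406), and without shDDX41 #1 D the first was −0.72 on the log2 scale.

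The HSPE1 values are uncertain for a further reason. In GENCODE v29, 9.7% of its 1977 exon bases also lie in exons of the read-through gene HSPE1-MOB4 and 14.2% in exons of HSPD1 on the other strand. HSPE1-MOB4 had 0 counts in all 9 libraries and MOB4 at most 3. Whether strand was used in counting, and how reads shared by overlapping genes were treated, is not stated in the sources used here. The low counts of HSPE1-MOB4 and MOB4 therefore do not show that these genes were not expressed. HSPE1 had 5.24, 6.49 and 6.39 counts per 100 HSPD1 counts in sh-Control, 5.73, 4.70 and 6.34 with shDDX41 #1 and 5.10, 4.28 and 4.54 with shDDX41 #2. Only the shDDX41 #2 libraries were all below the controls.

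**Figure D2:**
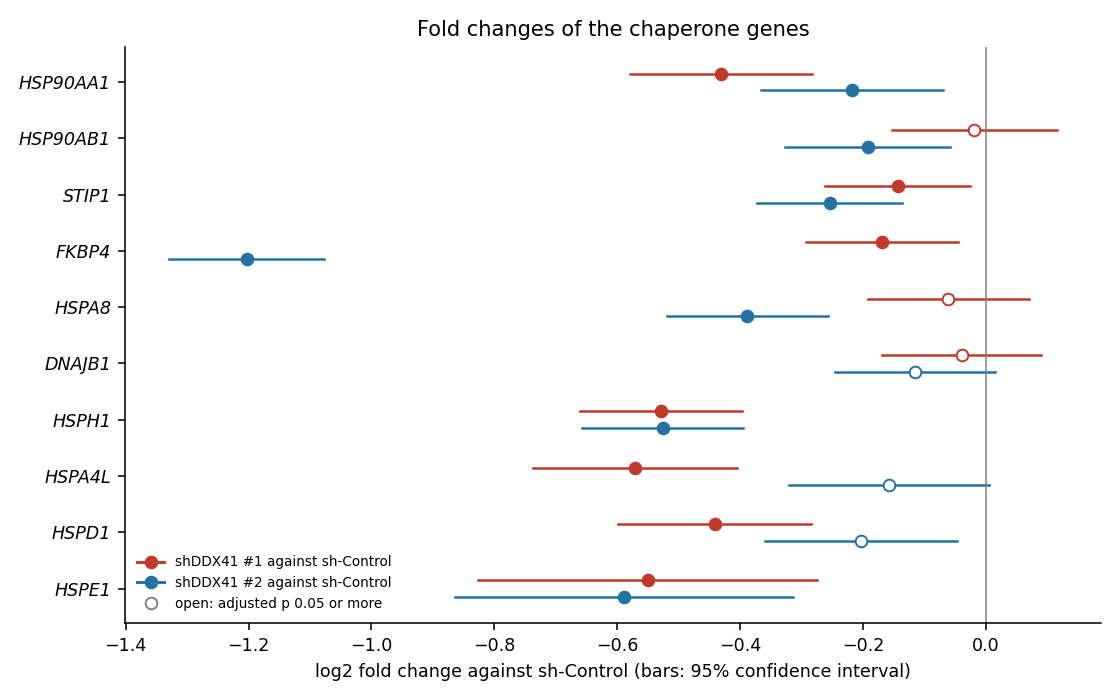
Log2 fold change against sh-Control (x axis) of each member (y axis) with shDDX41 #1 and shDDX41 #2, bars giving the 95% confidence interval and filled points an adjusted p under 0.05. FKBP4 at −1.20 with shDDX41 #2 stood alone, HSPH1 coincided at −0.53, and HSP90AA1, HSPA4L and HSPD1 were lower with shDDX41 #1 while HSPA8 and HSP90AB1 were lower with shDDX41 #2.

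In the direct comparison of the hairpins, 3 members were called lower with shDDX41 #1, 3 higher, and 4 were not called. This split is near that of all genes tested, of which 24.2% were called lower and 24.6% higher. HSP90AA1 (−0.21, adjusted p 0.0194), HSPD1 (−0.24, adjusted p 0.0146) and HSPA4L were lower with shDDX41 #1 than with shDDX41 #2. FKBP4 (1.03, adjusted p 7.68e-09), HSPA8 and HSP90AB1 (0.17, adjusted p 0.0324) were higher with shDDX41 #1. The calls for HSP90AA1 and HSP90AB1 were each kept in 5 of 9 fits that left out 1 library, lost for both without shDDX41 #1 A (adjusted p 0.0749 and 0.0760), shDDX41 #2 A (0.0663 and 0.0740) or shDDX41 #2 B (0.0812 and 0.0596), for HSP90AA1 without shDDX41 #1 B (0.0529) and for HSP90AB1 without shDDX41 #2 D (0.133). That for HSPD1 was kept in 7 of 9, lost without shDDX41 #1 A (0.0675) or shDDX41 #2 B (0.0705). For the 4 that were not called, the intervals of the log2 difference were −0.01 to 0.23 for STIP1, −0.05 to 0.21 for DNAJB1, −0.13 to 0.13 for HSPH1 and −0.24 to 0.32 for HSPE1. DDX41 itself was lower with shDDX41 #1.

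**Figure D3:**
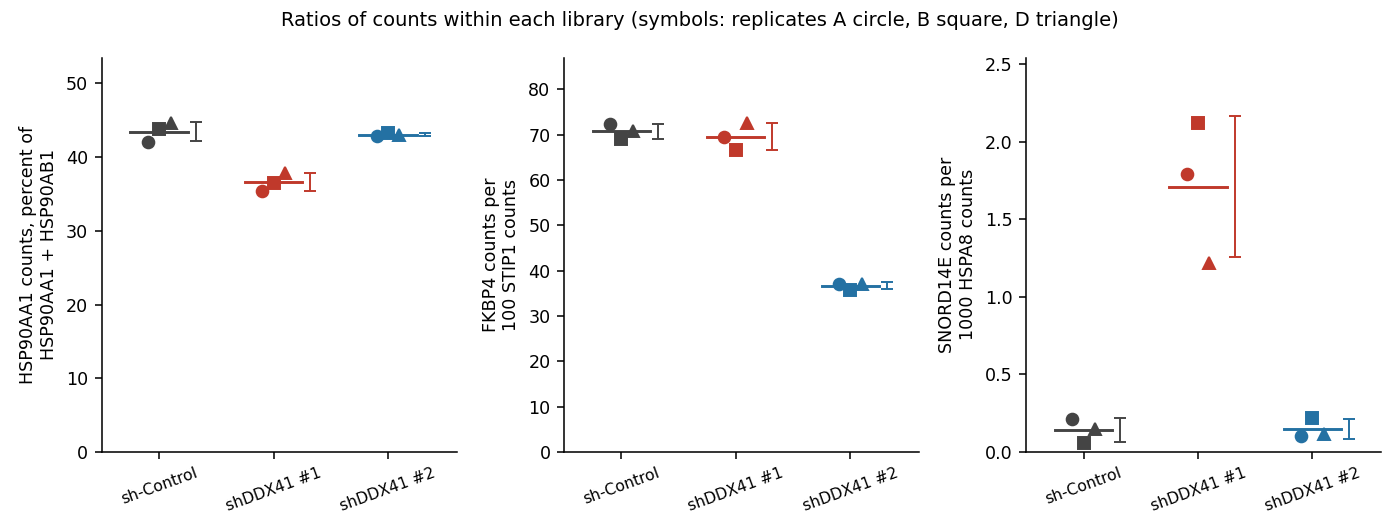
Ratios of counts inside each library (y axes, with the unit named on each) for sh-Control, shDDX41 #1 and shDDX41 #2, with a point per library, a line for the mean and a bar for the SD of 3 libraries. The HSP90AA1 share of the HSP90 pair was lower with shDDX41 #1 alone, FKBP4 per STIP1 was lower with shDDX41 #2 alone, and SNORD14E per HSPA8 was higher with shDDX41 #1 alone.

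Levels between genes were compared per kilobase of GENCODE v29 exon, in the sh-Control libraries unless said otherwise. HSP90AB1 led with 1098 ± 23.5 CPM per kb (SD, n = 3), followed by HSP90AA1 with 479 ± 16.03, HSPA8 with 424 ± 14.3 and HSPD1 with 295 ± 16.8. STIP1 (71.3), HSPH1 (51.8), FKBP4 (45.4), HSPE1 (38.3) and DNAJB1 (31.1) formed a middle tier, and HSPA4L was at 4.50 CPM per kb. HSPE1 and DNAJB1 were the only neighbours in this order whose control libraries overlapped. The order of HSP90AA1 and HSPA8 turned with shDDX41 #1, where HSP90AA1 was at 337 to 385 and HSPA8 at 396 to 421 CPM per kb. With shDDX41 #2, FKBP4 at 19.7 ± 0.102 CPM per kb moved below HSPE1 and DNAJB1. These lengths take in all annotated exons, and the annotation used by the authors is not stated in the sources used here. The limits on the HSPE1 counts given above hold for its place in this order.

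HSPA8 hosts the box C/D snoRNA genes SNORD14C, SNORD14D and SNORD14E on chromosome 11, which guide methylation of ribosomal RNA and are cut from its introns. SNORD14E, at chr11:123058077-123058161 and outside every annotated HSPA8 exon, had 8, 2 and 6 counts in sh-Control, 58, 68 and 41 with shDDX41 #1 and 3, 7 and 3 with shDDX41 #2. It rose with shDDX41 #1 (log2 3.48, SE 0.373, adjusted p 2.8e-06), while its host was not called. Per 1000 HSPA8 counts it was at 0.14 ± 0.0771 in sh-Control and 1.71 ± 0.455 with shDDX41 #1 (SD, n = 3).

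SNORD14C and SNORD14D, which lie inside exons of some HSPA8 transcripts, showed no such rise. SNORD14C had 30, 34 and 31 counts in sh-Control, 35, 58 and 30 with shDDX41 #1 and 17, 13 and 17 with shDDX41 #2. SNORD14D had 24, 21 and 34, then 27, 22 and 22, then 18, 11 and 14. With shDDX41 #2 both fell (log2 −1.02 and −0.88, adjusted p 0.0259 and 0.0437), as HSPA8 did. The call of SNORD14D held in 1 of 9 fits that left out 1 library, that without shDDX41 #1 D, and that of SNORD14C was lost without sh-Control B (0.0877) or shDDX41 #2 A or B (0.0591 and 0.117). Reads of snoRNA and host cannot be told apart in this table, and the libraries were selected for poly(A) RNA.

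The rest of the chaperone network was taken from a list of 71 other genes, of which 67 were tested. HSPA2, HSPB6, HSPB8 and CRYAB were below the filter. With shDDX41 #1, 17 were called lower and 13 higher (median log2 fold change −0.08). With shDDX41 #2, 21 were called lower and 2 higher (median −0.14). Of all genes tested, 24.1% were called lower and 23.7% higher with shDDX41 #1, and 13.4% and 11.6% with shDDX41 #2. The counts in the single lists below stand against these same shares. The count with shDDX41 #2 fell to between 8 and 14 without sh-Control B or D or without any 1 of the shDDX41 #2 libraries. Calls over all genes in those fits are not given here.

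The 3 genes of the heat shock factors and their regulator were not called in any comparison. HSF1 was at 184, 162 and 152 CPM in sh-Control, 152, 153 and 143 CPM with shDDX41 #1 and 170.1, 155 and 168 CPM with shDDX41 #2. HSF2, a related factor, was at 37.7, 45.6 and 43.6 CPM, then 38.8, 34.5 and 38.9 CPM, then 38.2, 37.7 and 37.9 CPM. Each knockdown group overlapped the controls for both genes, while for HSF1 the shDDX41 #1 libraries were all below the shDDX41 #2 libraries. HSF1 was called with shDDX41 #1 in the fit without sh-Control D (log2 −0.22, adjusted p 0.0363), and HSF2 with both hairpins in the fit without sh-Control A (log2 −0.25 and −0.23, adjusted p 0.0190 and 0.0466). These are RNA levels, and the activity of HSF1 is set mainly on the protein.

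With shDDX41 #1 and shDDX41 #2, 24.1% and 13.4% of all genes tested were called lower. Among the other cytosolic HSP70 and HSP110 genes, 2 of 6 tested were lower with shDDX41 #1 and 0 were called with shDDX41 #2. HSPA14, a ribosome-associated HSP70, was at 118, 128 and 133 CPM in sh-Control, 99.5, 104 and 101 CPM with shDDX41 #1 (log2 −0.32, adjusted p 0.000832) and 111, 116 and 113 CPM with shDDX41 #2. The other was HSPA6, a strictly inducible HSP70 named here after its values were seen, at 1.09 to 1.55 CPM in sh-Control and 0.243 to 0.603 CPM with shDDX41 #1 (log2 −1.69, adjusted p 0.00455). With shDDX41 #2 HSPA6 was at 0.303 to 0.919 CPM, below all controls, but missed the threshold (log2 −1.02, adjusted p 0.0650). It passed under limma voom (0.0491), the replicate block (0.0318), the fit on 6 libraries (0.0474) and without shDDX41 #2 A (0.0414). HSPA14 with shDDX41 #2 (log2 −0.16, adjusted p 0.0841) passed without sh-Control A (0.0336). The inducible HSPA1A and HSPA1B were at most 3.19 and 27.0 CPM in any library and were not called with either hairpin. They are near-identical copies, so their split is uncertain. HSPA4, the closest relative of HSPA4L, was at 349, 359.6 and 369 CPM in sh-Control, 313, 323 and 362 CPM with shDDX41 #1 and 329, 343 and 323 CPM with shDDX41 #2. It was not called, with log2 fold changes of −0.11 and −0.11, except with shDDX41 #1 when its replicate D was left out (log2 −0.16, adjusted p 0.0218).

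Of 11 other HSP90 co-chaperones, 3 were lower with each hairpin and 0 higher. Over all genes tested, 24.1% were called lower with shDDX41 #1 and 13.4% with shDDX41 #2. FKBP5, the paralog of FKBP4 and a glucocorticoid receptor target, was at 166, 166 and 147 CPM in sh-Control, 109.4, 108 and 95.3 CPM with shDDX41 #1 and 156, 170.2 and 148 CPM with shDDX41 #2. It fell with shDDX41 #1 (log2 −0.62, adjusted p 1.42e-05) and overlapped the controls with shDDX41 #2. Between the hairpins, FKBP5 differed by −0.60 (adjusted p 1.66e-05) and FKBP4 by 1.03.

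The 18 HSP70 co-chaperones hold the J-domain proteins, exchange factors and adaptors. With shDDX41 #1, 4 were lower and 6 higher, where 24.1% and 23.7% of all genes tested were. With shDDX41 #2, 4 were lower and 1 higher, where 13.4% and 11.6% of all genes were. DNAJC5, the J protein of secretory vesicles, was higher with both. It was at 125, 128 and 123 CPM in sh-Control, 169.6, 169.0 and 173 CPM with shDDX41 #1 (log2 0.44, adjusted p 2.09e-05) and 186, 196 and 195 CPM with shDDX41 #2 (log2 0.62, adjusted p 3.56e-06). HSPB1 was the one small heat shock protein gene tested. It was at 373, 321 and 336 CPM in sh-Control, 279.8, 265 and 308 CPM with shDDX41 #1 and 265, 248 and 264 CPM with shDDX41 #2, and it fell with both (log2 −0.27 and −0.41, adjusted p 0.00645 and 0.00101).

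Of the 8 subunits of TRiC, the cytosolic chaperonin that folds actin and tubulin, 2 were called lower and 2 higher with shDDX41 #1. Over all genes tested, 24.1% were called lower and 23.7% higher with shDDX41 #1, and 13.4% and 11.6% with shDDX41 #2. The TRiC counts with shDDX41 #1 were near these shares. TCP1 fell from 807, 804 and 914 CPM to 612, 657 and 682 CPM (log2 −0.37, adjusted p 0.000596), and CCT7 was also lower, while CCT3 and CCT8 were higher. With shDDX41 #2, CCT2, CCT6A and CCT7 were lower and TCP1 was not called (log2 −0.14). These CCT subunits were named after their values were seen. CCT3 and CCT8 with shDDX41 #1 lost the call without sh-Control A (adjusted p 0.0674 and 0.0765) or B (0.0718 and 0.0603). With shDDX41 #2 the calls of CCT2 and CCT7 held in 1 of 9 fits that left out 1 library, that without shDDX41 #1 D, and CCT6A was lost without sh-Control B or D (0.0633 and 0.0881) or shDDX41 #2 A or D (0.0870 and 0.117). Of the 6 prefoldin subunits, which deliver clients to TRiC, 2 were higher with shDDX41 #1. PFDN5 was at 139.9, 135 and 154 CPM in sh-Control and 187, 179 and 271 CPM with shDDX41 #1 (log2 0.57, adjusted p 0.00119), with replicate D far above the others, and at 166, 176 and 162 CPM with shDDX41 #2, where it was not called. Without replicate D of shDDX41 #1 the log2 fold changes of PFDN5 were 0.37 with shDDX41 #1 and 0.24 with shDDX41 #2, the latter then called (adjusted p 0.00414). The other was PFDN4. With shDDX41 #2 PFDN2 was lower, a call lost without B or D of that group (0.0595 and 0.0548), and PFDN1 was higher, a call that held in 4 of 9 fits that left out 1 library.

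The 14 other mitochondrial chaperones and quality control proteases were mostly lower with shDDX41 #2. With shDDX41 #1, 5 were lower and 3 higher, where 24.1% and 23.7% of all genes tested were. With shDDX41 #2, 9 were lower and 0 higher, where 13.4% and 11.6% of all genes were. The medians of the list were −0.04 and −0.22. HSPA9, the HSP70 of the matrix that passes proteins to HSPD1, was at 863, 873 and 944 CPM in sh-Control, 686, 710.5 and 769 CPM with shDDX41 #1 and 759, 754 and 741 CPM with shDDX41 #2. It fell with both (log2 −0.31 and −0.25, adjusted p 0.00125 and 0.0113), and the call with shDDX41 #2 was lost without sh-Control D (0.0543) or shDDX41 #2 D (0.0509). CLPX, the unfoldase of the matrix ClpXP protease, was at 87.5, 93.5 and 99.0 CPM in sh-Control, 116, 114 and 126 CPM with shDDX41 #1 and 82.5, 78.7 and 82.9 CPM with shDDX41 #2. It was higher with shDDX41 #1 (log2 0.35, adjusted p 0.000716) and lower with shDDX41 #2 (log2 −0.20, adjusted p 0.0467). The last call held in 2 of 9 fits that left out 1 library, those without sh-Control A and without shDDX41 #1 D, with an adjusted p of up to 0.166 in the others.

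**Figure D4:**
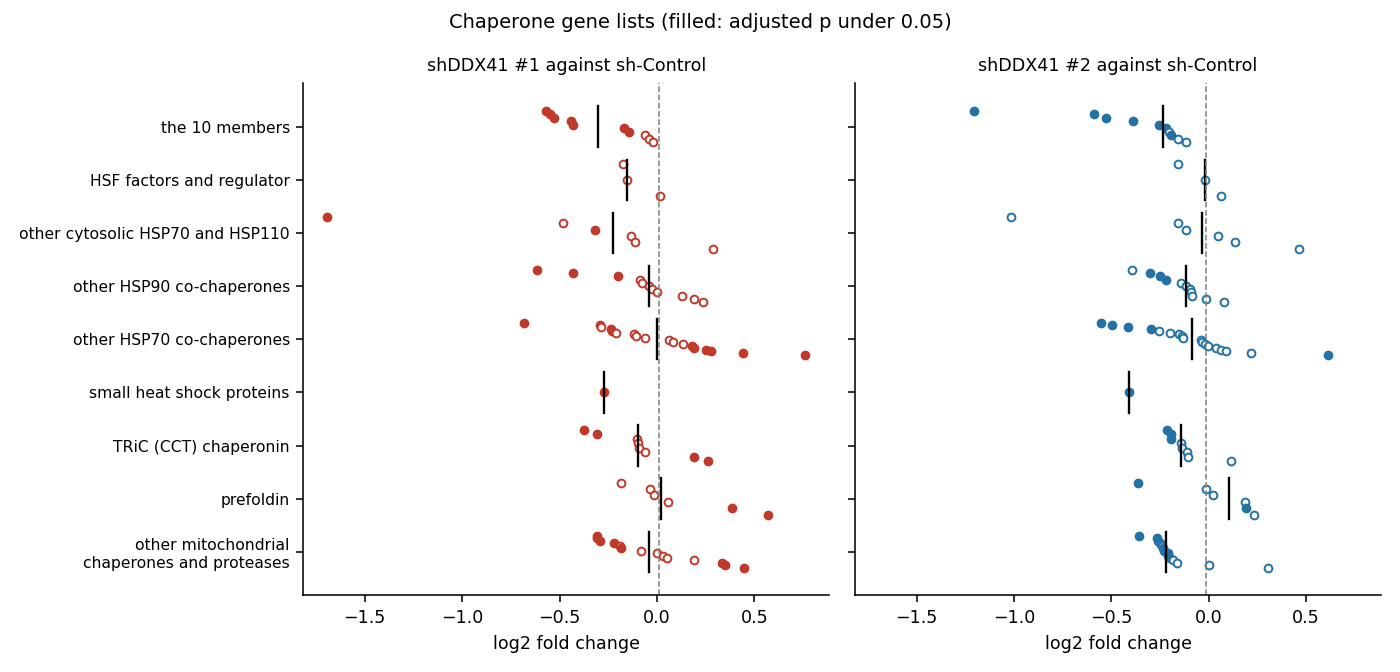
Log2 fold change against sh-Control (x axis, the same in both panels) of the 10 members and of the tested genes in 8 lists of other chaperone genes (y axis), with a point per gene, filled at an adjusted p under 0.05, a black line at the list median and a dashed line at the median of all genes. The members lay left of the dashed line in both panels, the HSP70 co-chaperones spread to both sides with shDDX41 #1, and the mitochondrial list lay mostly to the left with shDDX41 #2.

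The mean of the members' standardised log2 CPM was followed most closely, over the 9 libraries, by PNP (Pearson r 0.989), ALDH18A1 (0.988) and PRG2 (0.981). These values describe 9 points that share 3 groups. PNP, a purine salvage enzyme, was at 223 to 227 CPM in the controls, 182 to 198 CPM with shDDX41 #1 and 166 to 174 CPM with shDDX41 #2. ALDH18A1, which makes a precursor of proline, was at 126 to 127, 106 to 114 and 106 to 107 CPM. PRG2, an eosinophil granule protein, was at 510.3 to 589, 340.2 to 435 and 305 to 331 CPM. Of the members themselves, HSPH1 and STIP1 were closest to the mean profile, with r of 0.958 and 0.942, and HSPA4L was farthest from it, with 0.555.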

How the data were processed

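RNA-seq had been performed on 9 libraries of sorted MOLM13 cells, and the group of each was taken from its label. The authors deposited raw counts per gene symbol, not normalized, with 0 columns left unmapped. The submitters' processing notes list FastQC 0.11.7, HISAT2 2.0.5 and featureCounts 1.5.2 without roles. The methods name the tool iGEAK and a poly(A) kit, and the labels name a stranded kit. The annotation, the strand setting and the treatment of reads that match several genes are not given in the sources used here, which limits paralogs, overlapping genes and snoRNA hosts.

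The tests were run with edgeR 4.0.16 in R 4.3.3. Low genes were removed with filterByExpr at a minimum count of 10, scaling was by TMM, and 1 quasi-likelihood fit held the 9 libraries of the 3 groups (common biological coefficient of variation 0.0768). The 3 contrasts were tested two-sided with Benjamini-Hochberg adjustment over 12712 genes. CPM are TMM-scaled, confidence intervals are 95%, and an exact permutation test of 3 against 3 libraries cannot give a p under 0.1. The scripts were tested on simulated data. Alternatives were other scalings, filters, DESeq2 1.42.0, limma voom 3.58.1, a replicate block, fits on 6 libraries, a threshold of 0.01 and leaving out each library. The 10 members and the lists of other chaperone genes were chosen with earlier results of these data known. Named genes were the members, DDX41, the gene with the smallest adjusted p in each list, HSF1, HSF2, HSPA1A, HSPA1B, HSPA4, HSPA9, overlapping genes and the 3 genes closest to the mean member profile. No row was named by a member symbol followed by P and a number, and pseudogenes named in other ways were not looked for. Gene models were from GENCODE v29 and promoter windows from RefSeq. The result of 1 further marker list is not reported here.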

Additional observations from a re-analysis of the deposited data

Results flagged for a closer look

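The fold changes against sh-Control differed for 6 of the 10 members, by the test of shDDX41 #1 against shDDX41 #2. Of all genes tested, 24.2% were called lower and 24.6% higher in this test, so the count is near that of all genes. FKBP4 was higher with shDDX41 #1 by 1.03 on the log2 scale (102 CPM with shDDX41 #2 against 209 CPM). HSPA8 (0.33) and HSP90AB1 (0.17) were also higher with shDDX41 #1. HSPA4L (−0.41), HSPD1 (−0.24) and HSP90AA1 (−0.21) were lower with shDDX41 #1. Of these, FKBP4, HSPA8 and HSPA4L kept the call in all 19 alternatives.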

How the results depend on the processing

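The calls of the members and other named genes were recomputed under 19 alternatives, and for the members 499 values kept direction and call, 53 lost a call, 8 gained one and 10 turned in sign. At a threshold of 0.01 the members called between the hairpins dropped from 6 to 3, and leaving out 1 library gave 3 to 6. The other chaperone genes called with shDDX41 #2 dropped from 23 to 14 under upper quartile scaling and to 7 at the threshold of 0.01, and leaving out 1 library gave 8 to 29. Between the hairpins they dropped from 28 to 14 at the threshold of 0.01. Calls over all genes under these alternatives are not given here, so these counts do not show a change particular to chaperone genes. Under upper quartile scaling the sign turned for HSP90AB1 (0.057), HSPA8 (0.014), DNAJB1 (0.036), PFDN1 (0.061) and SNORD14D (0.054) with shDDX41 #1, for HSF1 (0.016) and FKBP5 (0.018) with shDDX41 #2 and for HSPH1 between the hairpins (0.039), and these values were not called. For HSPH1 it also turned without TMM (0.0029) and with at least 10 counts in every library (0.0017). Leaving out 1 library turned the sign of further uncalled values. Between the hairpins HSPH1 ran from −0.031 to 0.027 and HSPE1 from −0.14 to 0.15. With shDDX41 #1, HSP90AB1 ran from −0.029 to 0.0060, PFDN1 from −0.057 to 0.024 and SNORD14D from −0.13 to 0.17. With shDDX41 #2, HSF1 ran from −0.079 to 0.062, FKBP5 from −0.074 to 0.029, HSPA1B from −0.026 to 0.14 and SNORD14E from −0.75 to 0.097. The cause was not tested. The summed member share was 86.2% and 81.7% of sh-Control with shDDX41 #1 and #2, and leaving out any 1 member gave 80.8% to 90.3% and 79.6% to 83.3%. With the replicate letter as a block, the members called were 7, 8 and 6. Same-letter libraries correlated at −0.0574 to 0.243 in their deviations, over 0.1 in 2 of 9 pairs. With 3 libraries a group, these values cannot decide whether the letters pair the libraries. HSPA4L and HSPE1 had the fewest counts of the members, at 544 to 997 and 715 to 1614 a library.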

Other observations

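Other chaperone genes, picked after their values were seen, were DNAJA3, the J-domain partner of HSPA9 in the mitochondrial matrix, and DNAJC2, a J protein of the ribosome. Both were called higher with shDDX41 #1 and lower with shDDX41 #2. DNAJA3 was at 101, 97.4 and 87.8 CPM in sh-Control, 124, 125 and 112 CPM with shDDX41 #1 and 83.0, 79.2 and 81.9 CPM with shDDX41 #2. DNAJC2 was at 104, 120.1 and 121 CPM, then 133, 134 and 144 CPM, then 93.2, 91.7 and 96.6 CPM. The 3 groups did not overlap for either gene. With shDDX41 #2 the call of DNAJA3 was lost without sh-Control A or B (adjusted p 0.0931 and 0.107) or without A, B or D of shDDX41 #2 (0.0655, 0.111 and 0.0800). By the edgeR quasi-likelihood test the hairpins differed by 0.56 for DNAJA3 (adjusted p 1.35e-05) and by 0.55 for DNAJC2 (adjusted p 1.69e-05).
The SNORD14 copies in the ribosomal protein gene RPS13 also rose with shDDX41 #1. SNORD14B had 23, 37 and 33 counts in sh-Control, 102, 110 and 110 with shDDX41 #1 and 28, 23 and 29 with shDDX41 #2 (log2 1.92 with shDDX41 #1, adjusted p 2.66e-06). SNORD14A had 8, 14 and 16 counts, then 25, 43 and 19, then 10, 11 and 11 (log2 1.32, adjusted p 0.00666, and 0.0542 without shDDX41 #1 B). All 90 bases of SNORD14B lie in annotated exons of RPS13, so its reads cannot be told apart from those of the host, while SNORD14A lies outside them. RPS13 itself was at 779, 730.5 and 925 CPM in sh-Control, 969, 963 and 1289 CPM with shDDX41 #1 (log2 0.40, adjusted p 0.00626) and 869, 914 and 843 CPM with shDDX41 #2 (log2 0.11, adjusted p 0.495).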
